A study of Mus musculus with 12 samples.

Results

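The 10 genes described here encode the enzymes and regulators with which the liver makes glucose and stores it as glycogen. They were chosen by function, with earlier results of these data known. They are the rows of the deposited raw counts table with the symbols G6pc, Pck1, Fbp1, Slc37a4, Gys2, Pygl, Gbe1, Ppp1r3b, Ppp1r3c and Ppargc1a. All 10 were found among the 25540 symbols of the table, and all 10 passed the filter on low counts that left 15720 genes for testing. The measurements are polyadenylated RNA counts from 12 liver samples of BALB/c mice in 4 groups of 3, in a study whose title names liver fibrosis. Each group had been injected with exosomes, small vesicles that cells release, which the labels call iExos. The exosomes carried siCntrl or mASO Scrbl in the control groups, and siSTAT3 or mASO STAT3 in the groups aimed at STAT3, a transcription factor activated by interleukin-6 and related cytokines. The siSTAT3 group is compared with siCntrl (the siRNA arm) and the mASO STAT3 group with mASO Scrbl (the mASO arm). Sex, age, dose, time after injection, feeding state at collection and the way fibrosis was brought about are not named in the labels, and no untreated or healthy liver was analysed here. Nothing in the labels says that the 3 samples of a group came from separate animals. A sample is called a liver below for short. A p-value here reflects only how far those samples lie apart, and that spread may be technical.

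Gluconeogenesis builds glucose from lactate, amino acids and glycerol. Pck1 encodes the cytosolic phosphoenolpyruvate carboxykinase that starts the cytosolic part of the path, Fbp1 the fructose-1,6-bisphosphatase in its middle, and G6pc the catalytic subunit of glucose-6-phosphatase, which releases free glucose inside the endoplasmic reticulum from the glucose 6-phosphate that Slc37a4 carries in. Glycogen is made by the liver glycogen synthase Gys2 and the branching enzyme Gbe1 and is broken down by the liver phosphorylase Pygl, while Ppp1r3b and Ppp1r3c bring protein phosphatase 1 to glycogen, where it activates the synthase. Ppargc1a encodes PGC-1alpha, a coactivator that fasting and glucagon induce in the liver. In hepatocytes STAT3 is known as a repressor of gluconeogenic gene transcription.

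With TMM scaling the targeted transcript was not called in either arm. Stat3 stood at 112 ± 7.50 CPM (mean ± SD, n = 3) in siCntrl and 110 ± 16.2 in siSTAT3 livers, a log2 fold change of -0.03 ± 0.14 (SE, edgeR adjusted p = 0.867). It stood at 99.1 ± 8.40 CPM in mASO Scrbl and 103 ± 13.7 in mASO STAT3 livers, a log2 fold change of 0.05 ± 0.14 (edgeR adjusted p = 0.792). The STAT3 groups are therefore named by their labels throughout. CPM are counts per 1000000 of library totals scaled by the trimmed mean of M-values (TMM), and the totals ran from 39844158 to 67791159 counts. The TMM factors separated the groups, at 1.11 to 1.27 in the 6 control libraries and 0.804 to 0.901 in the 6 STAT3 libraries. Of 15720 genes 3515 were called higher and 3675 lower in the siRNA arm, against 3344 and 3542 in the mASO arm, at an edgeR adjusted p under 0.05. With plain library totals the same counts were 1655 and 7266, and 1525 and 7939, and the median log2 fold change of all genes moved from -0.04 to -0.53 and from -0.05 to -0.63. Stat3 was then called lower in both arms, by -0.54 (edgeR adjusted p = 0.00447) and -0.53 (edgeR adjusted p = 0.00413), close to those medians. The direction of a small change therefore rests on the scaling.

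Promoter sequence is shown for 4 genes, because these hold the letters of an element that answers to glucagon or insulin. RefSeq promoters of build GRCm38.p6 were found for 8 of the 10 genes, with 10 start sites, and the 250 bases before each start site were searched on both strands for 7 motifs picked after the expression results were known. Each sequence runs 5′ to 3′ on the gene's strand and ends at the base before the start site, and capitals mark every match to any of the 7 motifs.
G6pc (chr11:101367466-101367715, plus strand): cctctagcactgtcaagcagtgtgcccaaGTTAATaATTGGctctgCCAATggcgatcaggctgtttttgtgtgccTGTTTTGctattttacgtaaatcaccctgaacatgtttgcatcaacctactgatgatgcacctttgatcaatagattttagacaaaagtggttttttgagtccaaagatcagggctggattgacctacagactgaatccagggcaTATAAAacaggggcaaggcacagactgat
Pck1 (chr2:173152823-173153072, plus strand): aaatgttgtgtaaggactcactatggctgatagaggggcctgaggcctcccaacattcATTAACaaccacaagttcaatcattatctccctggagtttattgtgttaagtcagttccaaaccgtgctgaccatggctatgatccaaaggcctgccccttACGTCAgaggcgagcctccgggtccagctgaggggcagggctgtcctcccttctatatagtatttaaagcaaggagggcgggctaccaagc
Slc37a4, the first of its 3 start sites (chr9:44396696-44396945, plus strand): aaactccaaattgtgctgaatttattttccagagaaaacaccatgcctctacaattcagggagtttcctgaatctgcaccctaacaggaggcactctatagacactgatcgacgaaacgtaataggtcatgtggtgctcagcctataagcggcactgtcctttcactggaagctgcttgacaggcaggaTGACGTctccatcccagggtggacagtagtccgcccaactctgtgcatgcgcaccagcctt
Ppargc1a (chr5:51567726-51567975, minus strand): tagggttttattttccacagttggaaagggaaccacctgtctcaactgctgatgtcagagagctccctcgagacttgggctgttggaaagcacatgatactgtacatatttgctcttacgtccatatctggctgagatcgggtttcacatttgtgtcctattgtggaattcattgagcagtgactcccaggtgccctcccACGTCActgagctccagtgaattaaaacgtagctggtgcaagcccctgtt
The letters ACGTCA, the core of a cAMP response element, which answers to glucagon signalling, lay 91 to 86 bases before the start site of Pck1 and 50 to 45 bases before that of Ppargc1a. In Slc37a4 the same element lay on the opposite strand 61 to 56 bases before the first start site, in a stretch that its second promoter overlaps. These letters occurred in 3 of the 8 genes and in 6.47% of the 32851 promoters of the table. The units differ here and below, since a gene counts if any of its windows matches, while the percentages count single promoters. G6pc alone among the 8 held TGTTTTG, an insulin response letter string found in 5.56% of promoters, at 174 to 168 bases before its start site. It also held TATAAA (12.4% of promoters, 2 of the 8 genes, the other being the third start site of Slc37a4) at 29 to 24 bases, GTTAAT (6.43%), which Pck1 held too, and CCAAT in both directions (33.8%), which Fbp1 and Ppp1r3c held once each. The STAT palindrome TTCNNNGAA (7.02% of promoters) and the forkhead letters TGTTTAC (3.17%) occurred in none of the 8. A match describes these windows only, and a missing match says only that the letters are not in this window.

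Of the 10 genes 8 were called higher and 0 lower in the mASO arm, beside 21.3% higher and 22.5% lower (43.8% together) among all tested genes. The siRNA arm had 5 called higher and 0 lower, beside 22.4% and 23.4% (45.7% together). Each of these calls held under all 14 alternative settings of the processing. Since the genes were chosen with earlier results of these data known, no p is given for the set. CPM did not overlap between the groups, with the STAT3 livers higher, for 8 of the 10 genes in the mASO arm (27.2% of all tested genes) and 7 in the siRNA arm (25.5%), and with the STAT3 livers lower for 1 (29.6%) and 0 (27.5%). The median log2 fold change of the 10 was 2.02 in the mASO arm and 1.17 in the siRNA arm, beside medians of -0.05 and -0.04 over all tested genes. The 5 genes called in both arms were Fbp1, Slc37a4, Gys2, Pygl and Ppp1r3b, and 17.4% of all tested genes were called higher in both arms. G6pc, Pck1 and Ppp1r3c were called in the mASO arm and missed the threshold in the siRNA arm, and Gbe1 and Ppargc1a were called in neither. With library totals the uncalled siRNA values of G6pc, Gbe1 and Ppargc1a turned negative (-0.052, -0.37 and -0.35), and Gbe1 was called lower in the mASO arm (-1.13, edgeR adjusted p = 0.00608). These are whole livers, where fewer cells of a type and less RNA per cell cannot be told apart.

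**Figure D1:**
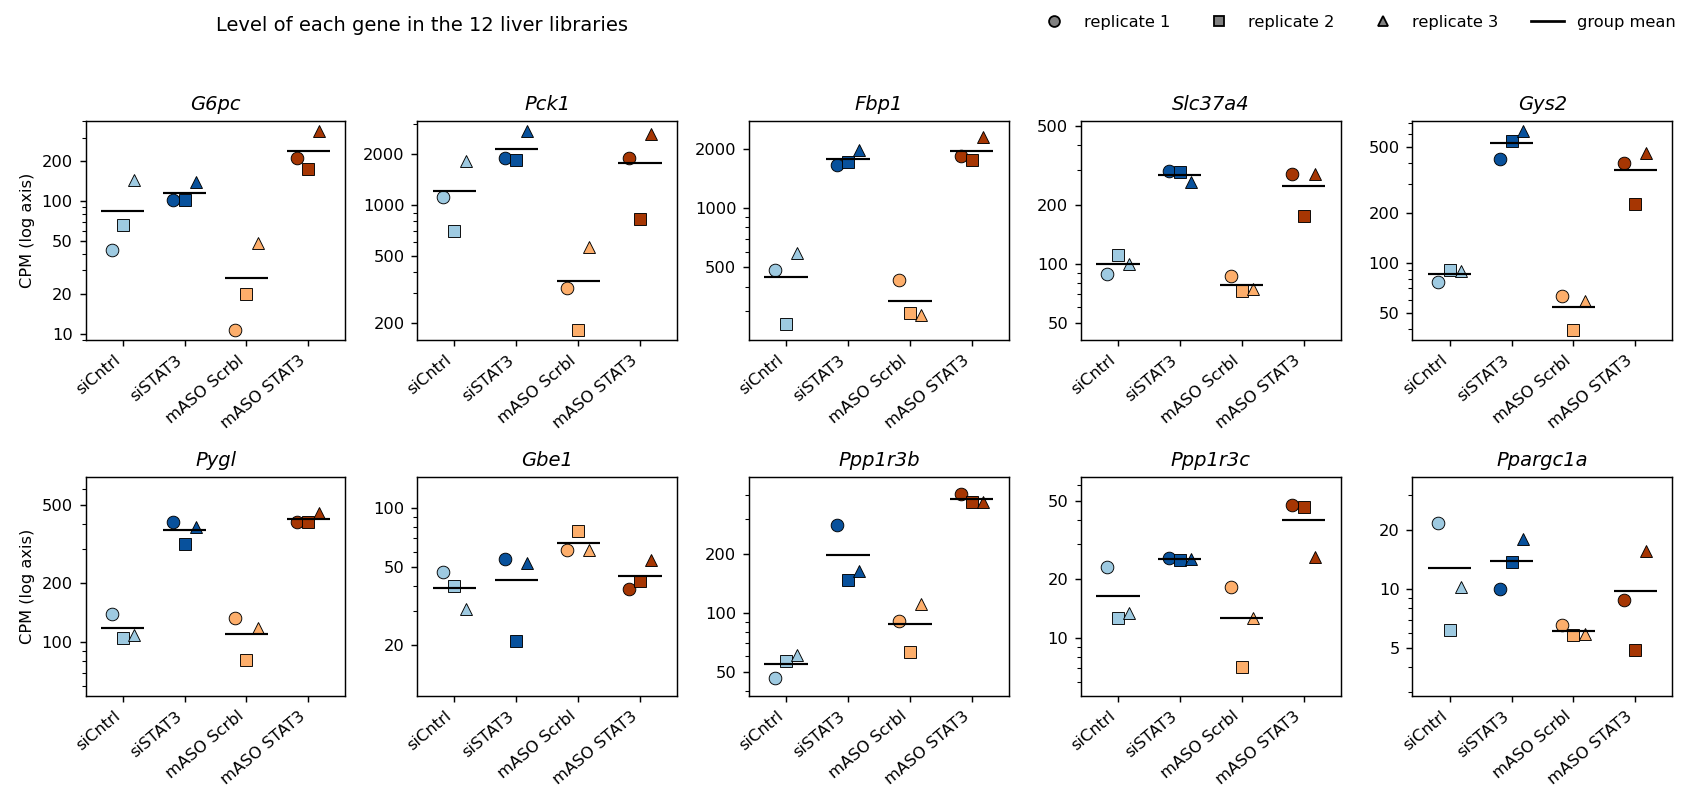
CPM of each of the 10 genes (vertical log axes) in the 12 livers, grouped by exosome cargo, with 1 symbol per replicate and a line at the group mean. Fbp1, Slc37a4, Gys2, Pygl and Ppp1r3b lay higher in every STAT3 liver than in any liver of their own control group, whereas the siCntrl and siSTAT3 values of G6pc, Gbe1 and Ppargc1a overlapped.

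The hepatic glucose-6-phosphatase system has 2 proteins, the enzyme and its transporter. The catalytic subunit gene G6pc measured 42.8, 65.6 and 145 CPM in the siCntrl livers and 102, 101 and 139 CPM in the siSTAT3 livers. These groups overlapped, since siCntrl replicate 3 lay above all 3 siSTAT3 livers, and the log2 fold change was 0.43 ± 0.54 (SE, edgeR adjusted p = 0.548, 95% interval -0.77 to 1.63). Without siCntrl replicate 3 it was 1.07 (edgeR adjusted p = 0.144). With the mASO cargo G6pc measured 10.6, 19.9 and 48.7 CPM in the mASO Scrbl livers and 209.9, 175 and 337 CPM in the mASO STAT3 livers. Every mASO STAT3 liver lay above every mASO Scrbl liver, and the log2 fold change was 3.19 ± 0.59 (SE, edgeR adjusted p = 0.00132), a 9.11-fold difference and the highest of the 10 genes in this arm. The 4 groups of G6pc ranked mASO Scrbl, siCntrl, siSTAT3 and mASO STAT3 by their means of 26.4 ± 19.8, 84.6 ± 53.8, 114 ± 21.7 and 240.4 ± 85.2 CPM (SD, n = 3), with overlap between the first pair and between the middle pair.

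Slc37a4, the transporter that feeds glucose 6-phosphate to that enzyme, was higher in both arms by nearly the same amount. It measured 88.6, 110.5 and 100.2 CPM in siCntrl and 298, 292 and 262 CPM in siSTAT3 livers, a log2 fold change of 1.51 ± 0.18 (SE, edgeR adjusted p = 1.66e-05). Between mASO Scrbl and mASO STAT3 livers it went from 86.7, 72.9 and 74.0 CPM to 287, 176 and 285 CPM, a log2 fold change of 1.68 ± 0.18 (SE, edgeR adjusted p = 6.91e-06). The lowest STAT3 liver, mASO STAT3 replicate 2, still lay above all control livers.

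Pck1 varied widely between livers of a group, with a coefficient of variation of 46.5% in siCntrl and 50.3% in mASO STAT3 livers. It measured 1117, 701 and 1817 CPM in siCntrl and 1894, 1827 and 2717 CPM in siSTAT3 livers. The groups did not overlap, but siCntrl replicate 3 lay just below the lowest siSTAT3 liver, and the log2 fold change of 0.82 ± 0.48 (SE) missed the threshold (edgeR adjusted p = 0.182, 95% interval -0.23 to 1.87). It passed in 1 of 14 alternatives, a fit with a replicate block (0.94, edgeR adjusted p = 0.00419). The replicate numbers were not taken to pair livers. The mASO arm was wider apart, where Pck1 measured 323, 182 and 565 CPM in the Scrbl livers and 1891, 830.0 and 2602 CPM in the STAT3 livers, a log2 fold change of 2.31 ± 0.50 (SE, edgeR adjusted p = 0.00297). The mASO Scrbl livers were the lowest group, and all 3 lay below all 3 siCntrl livers.

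Fbp1 varied less within the STAT3 groups than G6pc and Pck1 did. It measured 486, 258 and 593 CPM in siCntrl and 1669, 1730.0 and 1978 CPM in siSTAT3 livers, a log2 fold change of 2.01 ± 0.27 (SE, edgeR adjusted p = 4.49e-05). Between the mASO groups it went from 434, 294 and 288 CPM to 1835, 1754 and 2295 CPM, a log2 fold change of 2.53 ± 0.27 (SE, edgeR adjusted p = 7.25e-06). Every STAT3 liver of either arm lay above all 6 control livers.

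Gys2 and Pygl, on the making and the breaking side of glycogen, both rose in both arms. The synthase gene Gys2 measured 76.1, 90.3 and 89.2 CPM in siCntrl and 423, 540.3 and 622 CPM in siSTAT3 livers, and its log2 fold change of 2.63 ± 0.26 (SE, edgeR adjusted p = 4.26e-06) was the highest of the 10 genes in this arm. Gys2 in the mASO arm went from 63.1, 39.3 and 59.1 CPM to 398, 226 and 462 CPM, a log2 fold change of 2.75 ± 0.26 (SE, edgeR adjusted p = 2.96e-06). No STAT3 liver fell to the control range, although mASO STAT3 replicate 2 was lower than the other 5. The phosphorylase gene Pygl measured 139.5, 105.6 and 109.6 CPM in siCntrl and 412, 318 and 386 CPM in siSTAT3 livers, a log2 fold change of 1.65 ± 0.18 (SE, edgeR adjusted p = 1.05e-05). Pygl in the mASO arm went from 133, 81.6 and 118 CPM to 408, 412 and 457 CPM, a log2 fold change of 1.94 ± 0.19 (SE, edgeR adjusted p = 2.74e-06). The making and breaking genes thus moved the same way, with the larger change in Gys2.

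The branching enzyme gene Gbe1, which acts beside the synthase, did not follow it. It measured 47.1, 40.1 and 30.6 CPM in siCntrl and 55.0, 20.9 and 52.4 CPM in siSTAT3 livers, with siSTAT3 replicate 2 the lowest of the 12 livers (log2 fold change 0.12 ± 0.29, SE, edgeR adjusted p = 0.755). Gbe1 in the mASO arm measured 61.0, 76.3 and 61.4 CPM in the Scrbl and 38.5, 42.7 and 54.6 CPM in the STAT3 livers. Those groups did not overlap, and the log2 fold change of -0.55 ± 0.29 (SE) did not pass (edgeR adjusted p = 0.149, 95% interval -1.18 to 0.09). It passed in 2 of 14 alternatives. These were a fit of the 6 mASO libraries alone (-0.55, edgeR adjusted p = 0.0120) and library totals (-1.13, edgeR adjusted p = 0.00608).

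Both genes for subunits that target protein phosphatase 1 to glycogen were higher in the mASO arm. Ppp1r3b measured 46.5, 57.0 and 61.3 CPM in siCntrl and 281, 147 and 164 CPM in siSTAT3 livers, a log2 fold change of 1.84 ± 0.25 (SE, edgeR adjusted p = 5.29e-05). The mASO values of Ppp1r3b went from 91.1, 63.0 and 111 CPM to 401, 367 and 365 CPM, a log2 fold change of 2.10 ± 0.25 (SE, edgeR adjusted p = 1.98e-05). Each mASO STAT3 liver also lay above each siSTAT3 liver. Ppp1r3c measured 22.9, 12.6 and 13.5 CPM in siCntrl and 25.6, 24.8 and 25.2 CPM in siSTAT3 livers, which did not overlap but gave a log2 fold change of 0.63 ± 0.33 (SE, edgeR adjusted p = 0.138). In the mASO arm Ppp1r3c went from 18.2, 7.08 and 12.7 CPM to 47.4, 46.3 and 25.8 CPM, a log2 fold change of 1.66 ± 0.33 (SE, edgeR adjusted p = 0.00161). In the siRNA arm Ppp1r3c passed in 2 of 14 alternatives. It passed without siCntrl replicate 1 (0.95, edgeR adjusted p = 0.0414) and in a fit of the 6 siRNA libraries alone (0.63, edgeR adjusted p = 0.0494).

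The coactivator gene Ppargc1a stayed low and mixed. It measured 21.7, 6.22 and 10.3 CPM in siCntrl, 9.98, 13.8 and 17.9 CPM in siSTAT3, 6.55, 5.84 and 5.92 CPM in mASO Scrbl and 8.78, 4.92 and 15.7 CPM in mASO STAT3 livers. Groups overlapped in both arms, with log2 fold changes of 0.12 ± 0.45 (SE, edgeR adjusted p = 0.848, 95% interval -0.86 to 1.10) and 0.68 ± 0.45 (SE, edgeR adjusted p = 0.247, 95% interval -0.31 to 1.67). A rise of Ppargc1a of the size seen for Fbp1 lay outside both intervals.

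**Figure D2:**
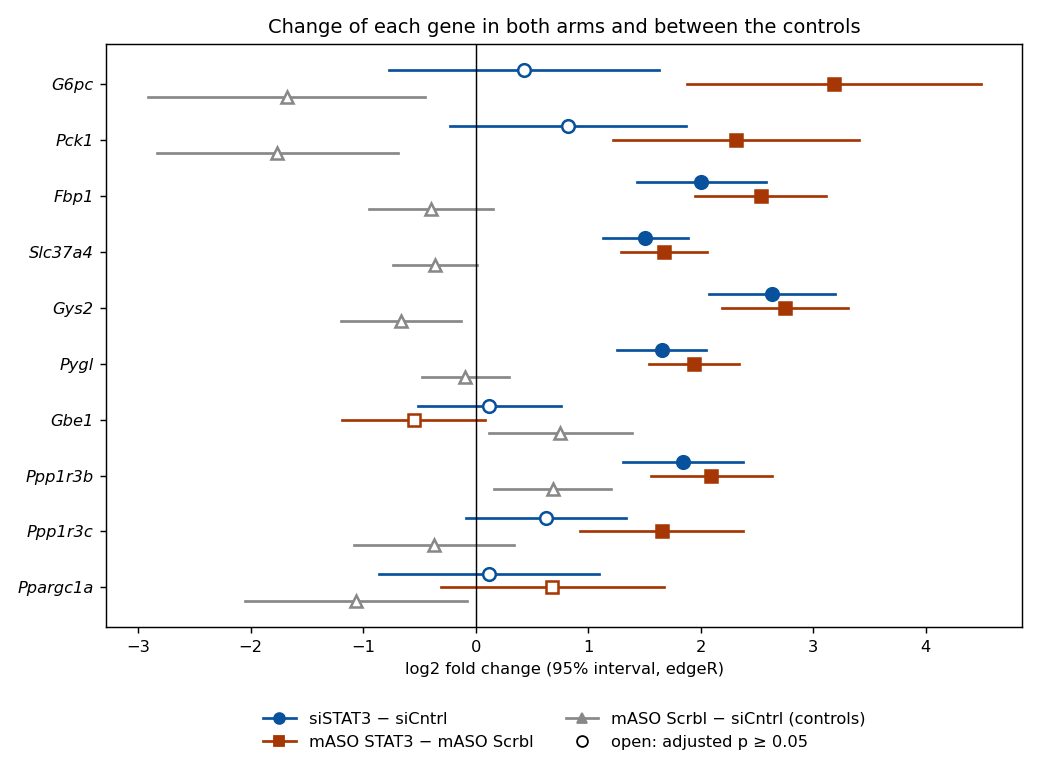
Log2 fold changes of the 10 genes (horizontal axis) with 95% intervals from edgeR, for the siRNA arm (circles), the mASO arm (squares) and mASO Scrbl against siCntrl (triangles), where open symbols mark an adjusted p of 0.05 or more. G6pc and Pck1 lay near -1.7 between the controls (-1.68 and -1.76), and those 2 genes also show the widest gaps between the arms.

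Levels of different genes were compared only after division by merged exon length (GENCODE vM21 basic annotation). Pck1 and Fbp1 held the first and second place in each of the 4 groups. Pck1 led in siCntrl livers with a mean of 455 CPM per kilobase against 301 for Fbp1, and Fbp1 led in the other groups, with 1212 against 806 in siSTAT3, 229 against 134 in mASO Scrbl and 1326 against 667 in mASO STAT3 livers. The range over livers of Pck1 and Fbp1 overlapped in the siCntrl and mASO Scrbl groups but not in the siSTAT3 and mASO STAT3 groups. Gys2 stood at 32.1 CPM per kilobase in siCntrl and 20.3 in mASO Scrbl livers, below Pygl at 35.4 and 33.2, and stood above Pygl in both STAT3 groups (199 against 111 in siSTAT3, 136 against 127 in mASO STAT3). The ranges of Gys2 and Pygl overlapped in siCntrl (28.6 to 33.99 and 31.6 to 41.7) and in mASO STAT3 livers (85.2 to 174 and 122 to 137), and did not in the other groups. Ppargc1a was last in all 4 groups, between 0.944 and 2.15 CPM per kilobase. G6pc held the eighth place in mASO Scrbl livers at 10.9 CPM per kilobase and the fifth in mASO STAT3 livers at 99.6.

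The difference between the arms was tested directly, as the siRNA log2 fold change minus the mASO one. None of the 10 genes passed, where 0.00636% of all tested genes (1 gene) did. Without adjustment 3 of the 10 had an edgeR p under 0.05, beside 7.39% of all tested genes, and DESeq2 called 0 of the 10. G6pc differed by -2.75 ± 0.78 (SE, 95% interval -4.48 to -1.03, edgeR adjusted p = 0.607), Pck1 by -1.49 ± 0.68 (edgeR adjusted p = 0.674) and Ppp1r3c by -1.03 ± 0.46 (edgeR adjusted p = 0.674). For the 5 genes called in both arms the differences lay between -0.53 for Fbp1 and -0.12 for Gys2, with 95% intervals that span 0.

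Some of the same genes lay apart between the controls, but none of the 10 passed. Among the alternatives only Pck1 passed there, in 1 of 14. Between mASO Scrbl and siCntrl 0 of the 10 genes passed in edgeR and 0 in DESeq2, where 0.0127% of all tested genes (2 genes) did in edgeR, and 6 of the 10 had an unadjusted edgeR p under 0.05, beside 7.85% of all tested genes. Pck1 was at -1.76 ± 0.49 (SE, edgeR adjusted p = 0.502, and -1.80 with adjusted p = 0.0262 with a replicate block), G6pc at -1.68 ± 0.56 (edgeR adjusted p = 0.569), Ppargc1a at -1.06 ± 0.45 and Gys2 at -0.66 ± 0.25, while Gbe1 at 0.75 ± 0.29 and Ppp1r3b at 0.68 ± 0.24 had positive values. Pck1, Slc37a4 and Gys2 lay lower in all mASO Scrbl than in all siCntrl livers and Gbe1 and Ppp1r3b lay higher, beside 5.67% and 6.75% of all tested genes without overlap in those directions. Between the STAT3 groups 0 of the 10 passed in edgeR, where 0% of all tested genes did, 2 had an unadjusted p under 0.05 beside 5.85% of all tested genes, and DESeq2 called 1. That gene was Ppp1r3b, higher in mASO STAT3 than in siSTAT3 livers by a log2 fold change of 0.94 ± 0.24 (SE, edgeR adjusted p = 0.391, DESeq2 adjusted p = 0.0472). CPM of G6pc, Ppp1r3b and Ppp1r3c lay higher in all mASO STAT3 than in all siSTAT3 livers, and 0 of the 10 lay lower, beside 6.04% and 5.14% of all tested genes. These comparisons have livers in common, so these values are not independent of each other.

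Ratios of 2 genes within a library do not depend on how libraries are scaled. Each was compared with an exact two-sided permutation test of 3 livers against 3, which cannot go below p = 0.1, and adjusted over 10 tests, of which 8 are given. The ratio of Fbp1 to Pfkl, the liver phosphofructokinase that runs the opposite reaction, was higher by 2.27 on the log2 scale in the siRNA arm and 2.66 in the mASO arm, without overlap (exact p = 0.1 each, adjusted p = 0.167). The ratio of Gys2 to Pygl was higher by 0.96 and 0.75, also without overlap (exact p = 0.1 each, adjusted p = 0.167). In both ratios every STAT3 liver lay above its own controls.

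The ratio of Pck1 to Pklr, the liver pyruvate kinase, differed by -0.14 (exact p = 0.8) in the siRNA arm and 1.35 (exact p = 0.2, adjusted p = 0.286) in the mASO arm, with overlap in both. Pklr itself was called higher in both arms. Its log2 fold changes were 1.08 ± 0.28 (SE, edgeR adjusted p = 0.00682) in the siRNA arm and 0.98 ± 0.28 (SE, edgeR adjusted p = 0.0120) in the mASO arm. The ratio of Ppp1r3b to Ppp1r3c was higher by 1.11 in the siRNA arm without overlap (exact p = 0.1, adjusted p = 0.167) and by 0.43 in the mASO arm with overlap (exact p = 0.6).

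**Figure D3:**
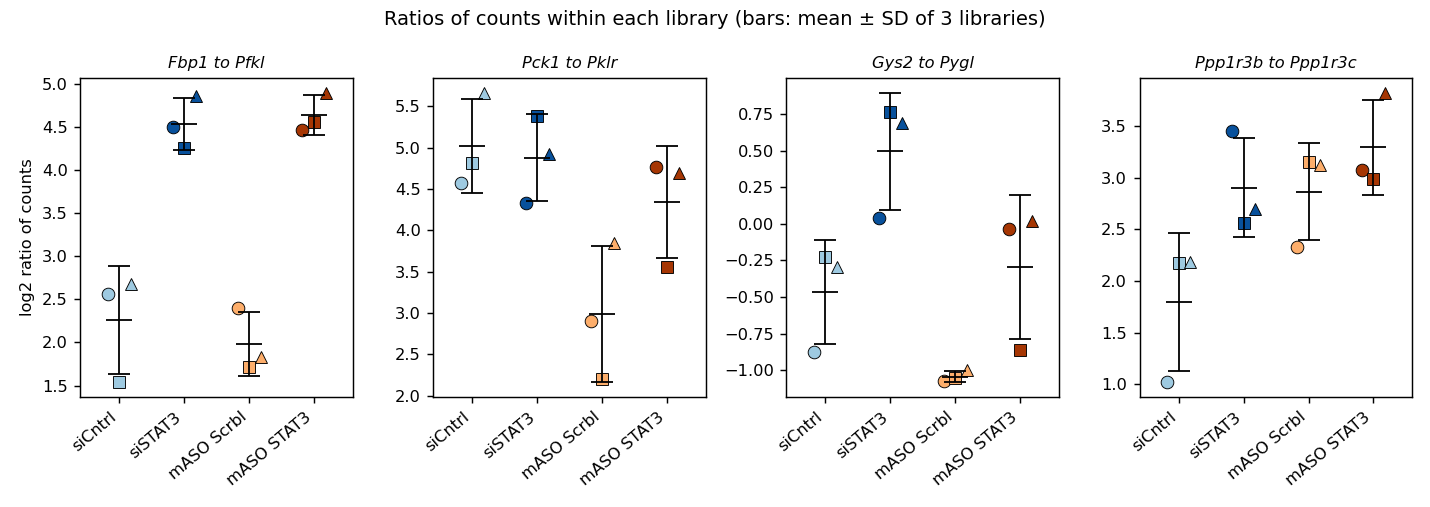
Log2 ratios of raw counts within each of the 12 libraries (vertical axes) for 4 gene pairs, by group, with 1 symbol per replicate and bars for the mean ± SD of 3 livers. Fbp1 to Pfkl and Gys2 to Pygl lay higher in every STAT3 liver than in the matching controls.

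Other genes of glucose production were read from a list of 31, of which 28 were tested. The siRNA arm had 15 called higher and 8 lower and the mASO arm 14 and 5 (10 and 10 with library totals), with medians of 0.47 and 0.51 on the log2 scale. Beside this list and those below, 22.4% of all tested genes were called higher and 23.4% lower in the siRNA arm. In the mASO arm those shares were 21.3% and 22.5%. Pcx, the pyruvate carboxylase that feeds Pck1 with oxaloacetate, was higher by 1.09 ± 0.15 (SE, edgeR adjusted p = 4.56e-05) and 1.10 ± 0.15 (edgeR adjusted p = 4.24e-05). The glucose exporter gene Slc2a2 was higher by 1.43 ± 0.22 and 1.14 ± 0.22, and the transaminase genes Gpt and Got1 by 2.87 ± 0.27 and 1.92 ± 0.35 in the siRNA arm and by 2.60 ± 0.27 and 2.05 ± 0.35 in the mASO arm. Fbp2, the muscle-type paralog of Fbp1, went the opposite way. It fell from 8.13, 15.6 and 8.34 CPM to 0.513, 0.206 and 0.215 CPM in the siRNA arm (log2 fold change -5.04 ± 0.56, edgeR adjusted p = 1.46e-05) and from 6.29, 19.6 and 8.62 CPM to 0.369, 0.342 and 0.745 CPM in the mASO arm (-4.55 ± 0.53, edgeR adjusted p = 2.13e-05). The lactate carrier gene Slc16a1 was lower by -1.63 ± 0.18 and -1.27 ± 0.18.

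Among other glycogen genes, 24 of 28 listed were tested, and 7 were called higher and 4 lower in the siRNA arm, against 8 and 3 with the mASO cargo, with medians of 0.26 and 0.11. Library totals turned that balance, to 1 higher and 9 lower and to 1 and 10. The count of higher calls was 4 without siCntrl replicate 2 in the siRNA arm, and in the mASO arm 3 without mASO Scrbl replicate 2 and 5 without mASO Scrbl replicate 3 or mASO STAT3 replicate 3. Epm2a, which encodes the glycogen phosphatase laforin, was higher by 1.51 ± 0.23 (edgeR adjusted p = 0.000133) and 1.80 ± 0.23 (edgeR adjusted p = 3.48e-05). Pygb, the brain-type paralog of Pygl, fell from 28.5, 30.7 and 27.1 CPM to 7.91, 8.85 and 9.06 CPM in the siRNA arm (log2 fold change -1.74 ± 0.12, edgeR adjusted p = 1.99e-07) and from 32.5, 32.4 and 30.6 CPM to 11.7, 11.2 and 10.5 CPM in the mASO arm (-1.52 ± 0.12, edgeR adjusted p = 5.27e-07). Gys1, the muscle-type paralog of Gys2, gave 0.22 ± 0.25 (edgeR adjusted p = 0.504) and 0.13 ± 0.25 (edgeR adjusted p = 0.704). Liver-type Fbp1 and Pygl and their paralogs Fbp2 and Pygb thus changed in opposite directions in both arms, while Gys1 was not called beside the rise of Gys2. The row named Pgm1 was lower by -2.66 ± 0.24 and -2.72 ± 0.23, but the mouse symbols Pgm1 and Pgm2 have been exchanged between annotation releases, and which phosphoglucomutase the row counts cannot be told here.

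**Figure D4:**
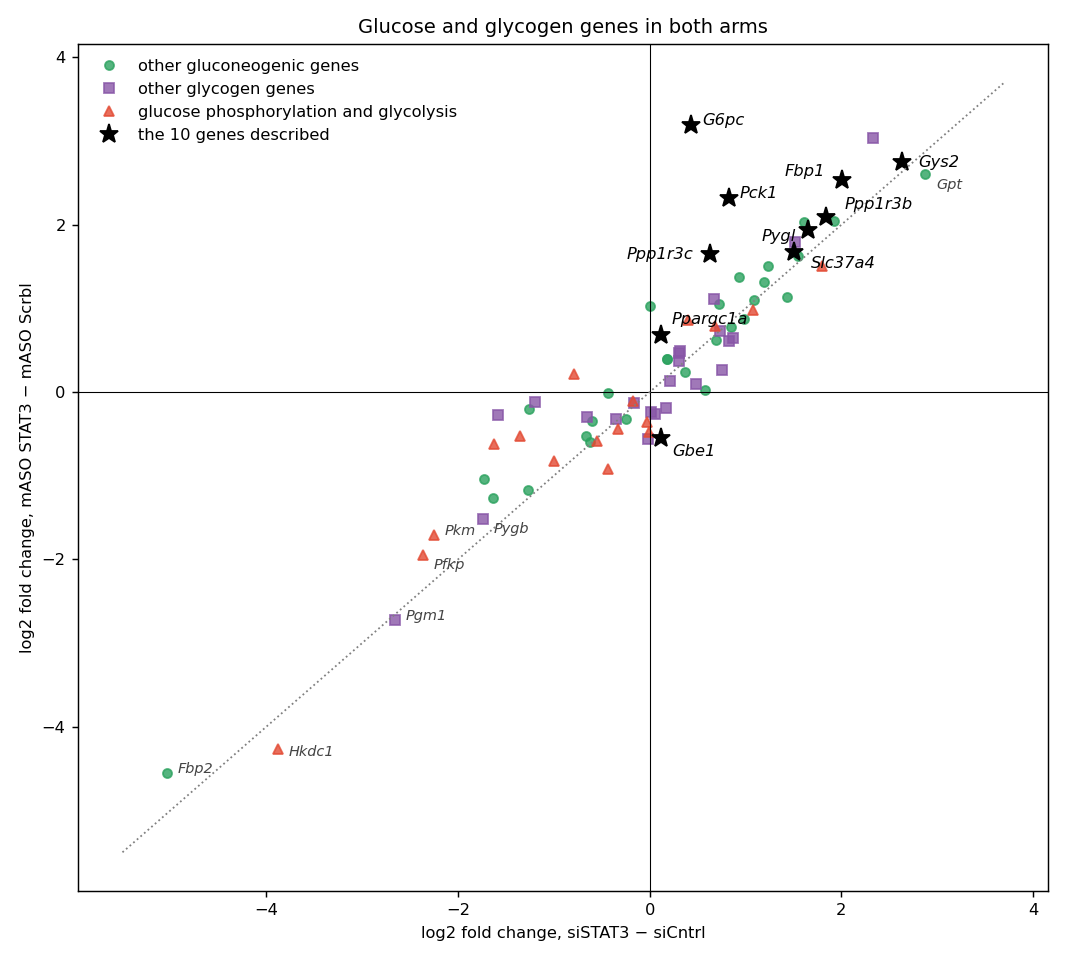
Log2 fold change of glucose and glycogen genes in the siRNA arm (horizontal axis) and the mASO arm (vertical axis), 1 symbol per gene, with a dotted line where both are equal. G6pc (0.43 and 3.19), Pck1 (0.82 and 2.31) and Ppp1r3c (0.63 and 1.66) lay above the line, and Fbp2, Hkdc1, Pygb and Pkm lay in the lower left.

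Of 18 genes for glucose phosphorylation and glycolysis, 4 were called higher and 7 lower in the siRNA arm, against 5 and 8 with the mASO cargo, with medians of -0.38 and -0.46. The 8 lower calls fell to 4 without mASO Scrbl replicate 1 or 3 and to 5 without mASO STAT3 replicate 2 or 3. Hkdc1, a hexokinase family member, was lower by -3.88 ± 0.52 and -4.26 ± 0.54, the platelet-type phosphofructokinase gene Pfkp by -2.36 ± 0.28 and -1.95 ± 0.27, and the pyruvate kinase gene Pkm by -2.25 ± 0.22 and -1.70 ± 0.21. All 3 genes passed in both arms. Other genes of this list were called higher in both arms. Gckr, the glucokinase regulator gene, was higher by 1.80 ± 0.21 and 1.503 ± 0.209. The liver pyruvate kinase gene Pklr was higher by 1.08 ± 0.28 and 0.98 ± 0.28. The Pklr calls held in 13 of 14 alternatives in the siRNA arm and 12 of 14 in the mASO arm. Pfkl gave -0.18 ± 0.12 (edgeR adjusted p = 0.261) and -0.11 ± 0.12 (edgeR adjusted p = 0.513).

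Of 49 genes for hormone signalling and transcription factors that act on these promoters, 17 were called higher and 6 lower in the siRNA arm, and 17 and 5 with the mASO cargo. With library totals they were 12 and 11, and 9 and 18. The 5 lower calls became 3 without mASO Scrbl replicate 1, mASO Scrbl replicate 3 or mASO STAT3 replicate 3. The glucagon receptor gene Gcgr was higher by 2.04 ± 0.21 (edgeR adjusted p = 6.18e-06) and 1.99 ± 0.21 (edgeR adjusted p = 7.30e-06), and the insulin receptor gene Insr by 0.92 ± 0.12 and 0.74 ± 0.12, of which the mASO call was lost with library totals (0.15, edgeR adjusted p = 0.2502). Cebpa, a factor of the mature hepatocyte, was higher by 1.81 ± 0.20 and 1.86 ± 0.20, and Mlxipl, the glucose-sensing factor ChREBP, by 2.49 ± 0.34 and 2.44 ± 0.34. Called lower in both arms were Nr4a1 (-2.28 ± 0.43 and -1.11 ± 0.41), Prkar1a (-1.04 ± 0.12 and -0.86 ± 0.12) and Prkaa1 (-0.68 ± 0.17 and -1.05 ± 0.17). The mASO call of Nr4a1 held in 8 of 14 alternatives. Creb1 was lower in the siRNA arm (-0.61 ± 0.14, edgeR adjusted p = 0.00367) and not called in the mASO arm (-0.30 ± 0.14, edgeR adjusted p = 0.104). Foxo1, the insulin-restrained activator of G6pc and Pck1, gave 0.15 ± 0.29 (edgeR adjusted p = 0.693) and 0.07 ± 0.29 (edgeR adjusted p = 0.876). Hnf4a gave 0.27 ± 0.20 (edgeR adjusted p = 0.279) and 0.22 ± 0.20 (edgeR adjusted p = 0.400).

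Genes linked to fasting and nutrient stress held more lower than higher calls. Of 15 tested, 2 were called higher and 7 lower in the siRNA arm, against 3 and 5 with the mASO cargo, with medians of -1.14 and -0.70. The 2 higher calls became 1 without siCntrl replicate 2 or any 1 siSTAT3 liver, and the 5 lower calls became 3 without mASO Scrbl replicate 2. Asns, asparagine synthetase, was lower by -4.34 ± 0.41 and -3.91 ± 0.39, and Cidec, a lipid droplet protein, by -4.44 ± 0.47 and -4.65 ± 0.47. Clock genes moved too, with 10 of 16 called higher and 3 lower in each arm. Per3, a period gene of the clock, was higher by 2.55 ± 0.30 and 1.93 ± 0.29. The core clock genes Arntl (-3.50 ± 0.49 and -1.38 ± 0.43) and Clock (-1.52 ± 0.28 and -1.15 ± 0.28) were lower. The mASO call of Arntl held in 12 of 14 alternatives. The part of the clock genes in the values of the 10 genes was not tested.

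Cell type markers moved with the same groups. The summed level of 14 hepatocyte markers, none at 0 in any group, ran from 70819 to 116389 CPM in siCntrl and 167470 to 182222 in siSTAT3 livers, while mASO Scrbl livers ran from 71052 to 104259 and mASO STAT3 livers from 149596 to 195360. Of these markers 9 were called higher in the siRNA arm and 11 in the mASO arm, with 0 called lower. With library totals 6 were called higher and 2 lower in the siRNA arm, against 7 and 1 with the mASO cargo. The 14 stellate cell and myofibroblast markers summed to 1494 to 1999 CPM against 294 to 436, and to 1050 to 2281 CPM against 427 to 509, with 12 and 11 called lower and 1 and 2 called higher. The 9 cholangiocyte and progenitor markers summed to 4688 to 6111 CPM against 561 to 824, and to 7485 to 9042 CPM against 652 to 758, with 6 and 5 of 8 tested called lower. The median log2 fold change of those 8 was -1.67 and -1.36. Spp1 (-3.41 and -3.75), Krt8 (-3.02 and -3.55) and Krt18 (-2.83 and -3.53) fell further than that. The keratin genes Krt8 and Krt18 are not confined to cholangiocytes and progenitors. Such a sum rests most on its highest genes and is not a count of cells. Of 7 pancreas and kidney markers 0 passed the filter, and their sum stayed at or below 0.0431 CPM in each liver. Whether the share of hepatocytes takes part in the rise of the liver-type genes was not tested.

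Within the groups, livers differed in how high the 10 genes stood. In mASO Scrbl replicate 2 and mASO STAT3 replicate 2, 1 of the 10 genes lay above its group mean, and in siSTAT3 replicate 3, mASO Scrbl replicate 1 and mASO STAT3 replicate 3, 8 did. After removal of the group means the correlation over the 12 livers was 0.75 for Pck1 and Gys2, 0.72 for Slc37a4 and Gys2 and 0.66 for Pygl and Ppp1r3c, the 3 highest of the pairs. It was 0.64 for G6pc and Pck1, and -0.51 for G6pc and Ppp1r3c was the lowest. These are descriptions over livers that share their scaling, and no p is given.

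Over all 12 livers the genes with the most similar pattern were sought by Pearson correlation of log2 CPM. The search covered 12413 genes with a mean of at least 1 CPM. Fbp1, Slc37a4, Gys2 and Pygl ran close to each other, at 0.93 to 0.98, so different closest genes do not place them in different sets. Pygl ran closest to Aadat and Akr1d1 (0.996 and 0.995), Fbp1 to F2 and Nipsnap1 (0.99 each), and Gys2 to Stard5 and Meiob (0.99 each). Slc37a4 ran closest to Gys2 itself (0.98). Ppp1r3b ran closest to the fatty acid synthase gene Fasn and to Mid1ip1 (0.97 and 0.96), G6pc to Fbxo33 and Cyp39a1 (0.95 and 0.93), Pck1 to Gm15690 and Plk3 (0.94 and 0.92) and Gbe1 to Kpna3 and Ipo7 (0.94 each). Ppp1r3c ran closest to Zfp810 and Fgf1 (0.97 and 0.92) and Ppargc1a to Lmbr1 and Atp5s (0.89 and 0.86). The correlations include the gaps between the groups, share the scaling of the libraries and carry no test.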

How the data were processed

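Raw counts per gene symbol, deposited by the authors as whole numbers, were analysed for 12 liver libraries. Per the labels' protocols, RNA was extracted with TRIzol and sequenced with a stranded Illumina mRNA kit. A second deposited table holds a normalized signal, in which each library's raw counts are scaled by 1 factor, and was used only to check that scaling. The submitters' processing notes list TopHat and Cufflinks but give neither a version nor what each was used for. Genome build, annotation, read counter and use of strand in counting are not given in the sources read here, so reads of overlapping or antisense genes and of near-identical copies could be mixed. Of the 25540 symbols, 21245 were found in RefSeq GRCm38.p6 and 23773 in GENCODE vM21. Symbols keep their deposited spelling.

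The 12 libraries were fitted together in edgeR 4.0.16 under R 4.3.3, with 1 coefficient for each group and TMM factors. Low genes were removed with filterByExpr at a minimum count of 10 and a minimum total of 15, which left 15720 genes and took out 9820. P-values of the robust quasi-likelihood F test were adjusted by Benjamini-Hochberg over all 15720 genes in each of 5 comparisons, and called means an adjusted p under 0.05. With 8 residual degrees of freedom, the common biological coefficient of variation came to 0.247. Each SE was taken as the absolute log2 fold change over the root of F, and intervals are 95%. Ratios add 0.5 to each count. The procedure was tested on simulated data in which few genes changed, with up and down drawn evenly. That test cannot judge the scaling here, where many genes were called and the TMM factors separated the groups. Alternatives were DESeq2's size factors, plain library totals, DESeq2's Wald test (version 1.42.0), limma voom (version 3.58.1), testing without a filter or only genes at 1 CPM or more in at least 3 libraries (the stricter filter), the compared libraries alone, a block for the replicate number and each library left out. No 2 libraries of a group agreed within sampling noise (chi-square per degree of freedom at least 52.6).

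The 10 genes and the lists were chosen with earlier results of these data known. Named beyond the 10 are Stat3, a fixed set of pathway genes, up to 3 higher and 3 lower genes per list that passed in both arms with a mean of at least 1 CPM, and for each of the 10 the 2 genes closest in pattern. Which of them are printed as examples was decided with their values in view, and a few of them are not reported here. Markers of macrophages, neutrophils, endothelial cells, lymphocytes, red cells, and muscle or fat were also counted: in the siRNA arm 1 of 12, 0 of 10, 0 of 10, 1 of 11, 1 of 6 and 0 of 1 were higher and 6, 5, 5, 1, 0 and 1 lower, and in the mASO arm 2, 0, 1, 4, 0 and 0 were higher and 4, 6, 4, 0, 0 and 1 lower.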

Additional observations from a re-analysis of the deposited data

How the results depend on the processing

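Each call of the 10 genes in the arms (5 in the siRNA and 8 in the mASO arm) held under all 14 alternatives. Over those, G6pc ran from 2.59 to 3.98 and Pck1 from 1.71 to 2.81 in the mASO arm. Of 140 values per arm 9 reversed in the siRNA arm and 0 in the mASO arm. For the 68 other named genes, 909 of 952 values in the siRNA arm and 879 of 952 in the mASO arm kept direction and call, and 10 and 19 reversed. The cause of the changes below was not tested unless the setting itself is the cause.

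Library totals lowered the median log2 fold change of the 10 genes to 0.68 and 1.44. They gave 1655 higher and 7266 lower genes in the siRNA arm, 1525 and 7939 in the mASO arm, 3 higher between the controls, and 1 of the 10 genes lower in the mASO arm (Gbe1, -1.13). With them uncalled values changed sign for G6pc (-0.052), Gbe1 (-0.37) and Ppargc1a (-0.35) in the siRNA arm and Pygl (0.023) between the controls. Stat3 became called lower in both arms (-0.54 and, with a change of sign, -0.53). Other genes that changed sign were Ugp2 (-0.0046), Gys1 (-0.29), Foxo1 (-0.32) and Hnf4a (-0.21) in the siRNA arm, and Ugp2 (-0.50), Gys1 (-0.44), Foxo1 (-0.53), Crtc2 (-0.019), Hnf4a (-0.35), Nr3c1 (-0.21) and Irs2 (-0.44) in the mASO arm. Higher and lower calls of the lists became 1 and 9 (other glycogen genes), 2 and 13 (glycolysis) and 12 and 11 (hormone signalling) in the siRNA arm. In the mASO arm they became 1 and 10, 2 and 12, and 9 and 18.

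For the difference of the arms (0 higher, 1 lower), DESeq2 gave 17 and 44, no filter 1 and 2, limma voom 2 lower and the stricter filter 2 lower. For the controls (0 and 2), DESeq2 gave 24 and 55 and no filter 2 and 5. For the STAT3 groups (0 and 0), DESeq2 gave 59 and 19, with 1 of the 10 genes (Ppp1r3b), and no filter 5 and 1. The mASO libraries alone called 1 of the 10 genes lower (Gbe1). Irs2 in the mASO arm was -0.035 with limma voom.

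Leaving out 1 library gave 0 to 3 higher and 0 to 8 lower genes for the difference of the arms (8 without siCntrl replicate 2), 0 to 4 and 0 to 9 for the controls (4 and 9 without siCntrl replicate 1), and 0 to 5 and 0 to 2 for the STAT3 groups (5 without mASO STAT3 replicate 3). The siRNA values then ran from -0.10 to 0.45 for Gbe1, -0.21 to 0.75 for Ppargc1a, -0.12 to 0.082 for Stat3, -0.066 to 0.38 for Gys1, -0.089 to 0.36 for Foxo1, -0.38 to 0.28 for Cebpb and -0.084 to 0.053 for Gyg. The mASO values ran from -0.042 to 0.15 for Stat3, -0.10 to 0.30 for Ugp2, -0.063 to 0.30 for Gys1, -0.30 to 0.29 for Foxo1 and -0.21 to 0.52 for Irs2. The difference of the arms ran from -0.89 to 0.067 for Ppargc1a and -0.37 to 0.10 for Gys2, and the controls from -0.24 to 0.088 for Pygl. Between the STAT3 groups Gbe1 ran from -0.25 to 0.31, Pck1 from -0.66 to 0.066 and Slc37a4 from -0.30 to 0.0077. The siRNA ratio of Pck1 to Pklr ran from -0.39 to 0.18.

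The replicate numbers were not taken to pair livers, since the correlation of residuals between equally numbered libraries lay between -0.37 and 0.27, and 3 of 6 siRNA and 0 of 6 mASO libraries correlated best with their own number. With the replicate block Pck1 passed in the siRNA arm (0.94, edgeR adjusted p = 0.00419) and, as 1 of the 10 genes, lower between the controls (-1.80, edgeR adjusted p = 0.0262), 0 genes were lower in the difference of the arms, and Foxo1 was -0.0039 in the mASO arm. Depth was at least 39844158 counts a library, and with 3 livers a group the exact tests cannot go below p = 0.1.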
